A study of Oryzias latipes with 27 samples.

Results

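The gonads of medaka at 120 days post hatch (D120) were compared between wild-type XX females and wild-type XY males, that is, the mature ovary (WT_Fe_Ov) against the mature testis (WT_Ma_Te). The libraries were chosen by their labels, 3 of WT_Fe_Ov and 3 of WT_Ma_Te, which are 6 of the 27 RNA-seq libraries of the series. Medaka (Oryzias latipes) is a small egg-laying fish in which XY animals become males. The series covered 3 ages (10, 30 and 120 days post hatch) and also held XY females with a TALEN mutation of the sex determination gene DMY (MT_Fe_Ov), whose D120 ovaries are given here beside the wild-type groups for a few genes. Neither group compared carried a mutation or received a treatment, and both were kept under the same light and temperature. The study calls the 3 libraries of a group biological replicates, but the sources used here do not say whether each came from 1 animal or from pooled animals.

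The adult medaka ovary holds oocytes of all sizes, each wrapped in follicle cells. The oocyte takes up yolk protein, stores maternal mRNA and protein for the embryo and stops in meiosis until maturation, while the follicle cells make oestrogen and open the follicle at ovulation. The adult testis holds spermatogonia, spermatocytes in meiosis, spermatids that build a flagellum, and sperm, together with the supporting Sertoli cells and the androgen-producing Leydig cells. In bulk tissue, fewer cells of a type and less RNA per cell cannot be told apart, so each value below is a level in the whole organ.

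Reads were counted per gene by the authors, and each level below is in FPKM, the counted fragments per kilobase of exon scaled by the total counts of the library. The log2 fold changes use library sizes adjusted by a further factor per library (TMM), so they need not equal the ratio of FPKM levels. The 6 libraries held 11373264 to 16345431 counted pairs. Of the 24997 genes tested, 5902 were higher in WT_Fe_Ov (23.6% of those tested) and 7410 were higher in WT_Ma_Te (29.6%). In either direction 53.3% were called, and the counts of each gene list below stand beside these shares. A call needed an adjusted p of 0.05 or less (edgeR, quasi-likelihood test, Benjamini-Hochberg) together with an absolute log2 fold change of 1 or more, and the log2 fold change is WT_Fe_Ov over WT_Ma_Te throughout. The p-values measure the spread between these 3 and 3 libraries. The levels of the 2 groups did not overlap for 17851 genes (71.4%), so that a single gene whose groups stand apart is common in this comparison. The median log2 fold change of all tested genes was -0.31, and -0.60 when libraries were scaled by their total counts alone, where the numbers of genes called became 4760 and 8635. Between 15253 and 15826 genes reached 1 FPKM in the testis libraries and between 13445 and 14338 in the ovary libraries, and the 100 most counted genes took 8.43 to 8.61% of the testis counts and 16.8 to 17.8% of the ovary counts. These groups did not overlap, but the exact permutation test, two-sided, of 3 libraries against 3 cannot go below p = 0.1. The ovary-higher genes held 59.2% to 60.2% of the counts of the ovary libraries, and the testis-higher genes 48.6% to 49.3% of those of the testis libraries.

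**Figure D1:**
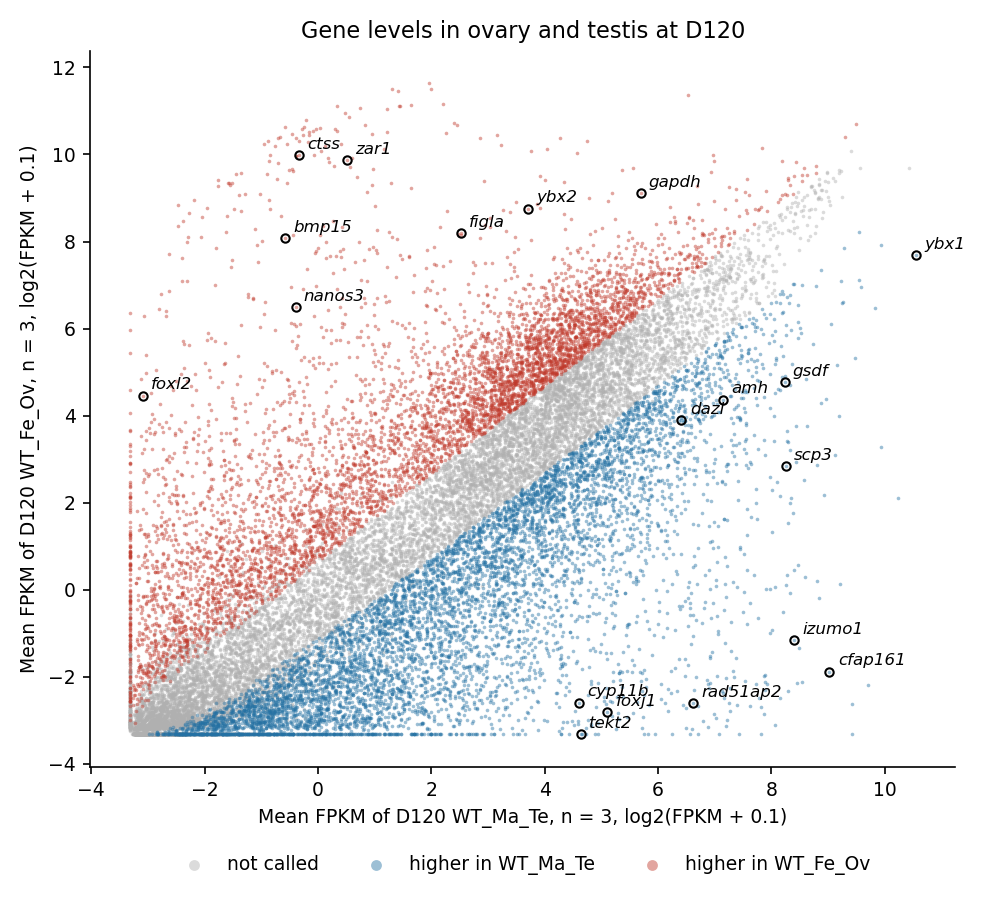
Mean FPKM of each tested gene in the 3 D120 WT_Fe_Ov libraries (vertical axis) against the 3 D120 WT_Ma_Te libraries (horizontal axis), both as log2(FPKM + 0.1), with each gene coloured by its call. The oocyte genes zar1 and bmp15 lie at the upper left, the sperm genes izumo1 and cfap161 at the lower right, and the 7410 testis-higher genes outnumber the 5902 ovary-higher genes.

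The labels were checked against genes that define the tissues. Ovary markers found in the table, figla, bmp15, zar1 and foxl2, and the aromatase gene, were all higher in WT_Fe_Ov, and the testis markers gsdf, amh, nanos2, dmc1 and cfap52 were all higher in WT_Ma_Te. The markers gdf9, zp3, tekt1 and odf3 were not analysed here, since no gene of that symbol was matched. For cyp11c1 and sycp3, the genes carrying the medaka symbols cyp11b and scp3 were read, a choice made after their values were seen. Abundant ovary genes with very large fold changes were counted in the testis libraries in unequal amounts. Their low testis level follows from how they were picked, so only the inequality between the testis libraries is read. Over the 80 ovary-higher genes with at least 500 FPKM in the ovary and a log2 fold change of at least 8, the testis level had a median of 0.0142% of the ovary level in testis replicate 1, 0.0564% in replicate 2 and 0.134% in replicate 3. The size of the largest ovary-side fold changes moves with this, as for ctss below, and its part in other results was not tested. Of 218 genes followed by name, 39 overlap the span of another annotated gene, and besides those marked below these include dnd1, ckb, spag1, hook1, haus6, lama2, ncf4, phf21b and rasl11a.

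The oocyte's own regulators had the highest median of all the gene lists. Of 8 transcription and growth factors of the oocyte, 7 were ovary-higher and 1 testis-higher and their median log2 fold change was 4.04, against -0.31 over all genes. The gene figla (chromosome 9, 24881687 to 24903836), a helix-loop-helix factor that starts egg envelope and follicle genes, was at 297, 272 and 313 FPKM in the 3 WT_Fe_Ov libraries and at 5.55, 5.88 and 5.52 FPKM in the 3 WT_Ma_Te libraries. The growth factor gene bmp15 (chromosome 18, 21189114 to 21192342), which the oocyte secretes towards its follicle cells, was at 271, 262 and 279 FPKM in the ovary and at 0.673, 0.458 and 0.581 FPKM in the testis. For both genes every ovary library lay far above every testis library, with log2 fold changes of 6.02 for figla (standard error 0.14, edgeR adjusted p = 1.16e-10) and 9.18 for bmp15 (standard error 0.18, edgeR adjusted p = 7.65e-11). The other called genes of the list were zglp1 (log2 fold change 5.59), foxh1 (4.19), nobox (3.88), nanog (3.28) and gdf3 (1.72). Of these, nobox is a homeobox factor of young oocytes, and foxh1 and gdf3 take part in Nodal signalling, which in zebrafish uses maternal gene products. The exception was lhx8, a LIM homeobox gene needed by young mouse oocytes, which was higher in the testis at a low level, with 0.535 ± 0.285 FPKM in WT_Fe_Ov and 3.32 ± 0.646 FPKM in WT_Ma_Te (SD, n = 3 each, edgeR adjusted p = 0.00119). The span of nanog overlaps that of ipo4, and since the counting used no strand, reads from any exons that such a pair shares cannot be told apart.

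RNA-binding and translation factors of the germ line had 10 ovary-higher (45.45%) and 9 testis-higher (40.91%) members among 22 tested (median log2 fold change 0.17). Over all genes these shares were 23.6% and 29.6%. On the ovary side stood zar1 (chromosome 4, 1220502 to 1221857), whose protein holds maternal mRNA in the oocyte, with 961, 909 and 929 FPKM against 0.77, 1.24 and 1.94 FPKM in the testis (log2 fold change 9.81, edgeR adjusted p = 1.47e-10), and its relative zar1l, with 909 ± 59.3 against 1.04 ± 0.484 FPKM (SD, n = 3 each). The ovary libraries of zar1 lay close together, while the testis libraries were all under 2 FPKM. The germ cell gene nanos3 had 99.3, 81.4 and 89.5 FPKM in the ovary and 0.572, 0.512 and 0.896 FPKM in the testis, a log2 fold change of 7.40 (edgeR adjusted p = 4.42e-10). Also higher in the ovary were igf2bp3, an mRNA-stabilizing protein (log2 fold change 4.78), and cpeb1, which controls the poly(A) tail of stored mRNA (3.07). On the testis side stood cpeb4 (log2 fold change -4.74), pum2, a translational repressor (-3.36), and dazl, a germ cell translation factor, with 15, 17.3 and 11.9 FPKM in the ovary and 94.7, 82.5 and 78.7 FPKM in the testis (-2.22).

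Genes of meiotic arrest and maturation gave 3 ovary-higher and 8 testis-higher among 24 tested (median log2 fold change -0.71), a testis-higher share close to the 29.6% of all genes. The ovary-higher members were mos, ccnb2 and mad2l1. The kinase gene mos, which drives oocyte maturation and the arrest that follows it, was at 67.6, 69.1 and 73.2 FPKM in the ovary and at 0.753, 1.78 and 1.19 FPKM in the testis (log2 fold change 6.16, edgeR adjusted p = 1.74e-09). Its ovary libraries lay close together, and none overlapped with the testis. The cyclin gene ccnb2 was abundant in both tissues, with 430.1 ± 11.1 FPKM in WT_Fe_Ov and 210.3 ± 16.2 FPKM in WT_Ma_Te (SD, n = 3 each). Cell cycle genes of this list that were testis-higher included the phosphatase gene cdc25b (log2 fold change -3.49) and the spindle checkpoint gene bub1b (-3.45), both of which other dividing cells use as well. The receptor gene gpr12 of this list was testis-higher too (log2 fold change -5.35, edgeR adjusted p = 0.000124, and -7.50 without ovary replicate 2). The call of mad2l1, a checkpoint gene, was lost by library totals (log2 fold change 1.21, then 0.89).

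Yolk uptake genes gave 8 ovary-higher (42.1%) and 3 testis-higher (15.8%) among 19 tested (median log2 fold change 0.71). Over all genes these shares were 23.6% and 29.6%. The receptor gene vldlr, which binds vitellogenin in fish oocytes, was at 183, 159 and 203 FPKM in the ovary and at 8.67, 8.57 and 7.83 FPKM in the testis, and dab2, an endocytic adaptor for receptors of that family, was at 222 ± 6.86 against 3.68 ± 1.63 FPKM (SD, n = 3 each). Their log2 fold changes were 4.77 (edgeR adjusted p = 1.01e-09) and 6.25 (edgeR adjusted p = 3.8e-09). The receptor chaperone gene lrpap1 was higher by a smaller amount, 1.80 on the log2 scale. The protease gene ctss, cathepsin S, reached 1028, 996 and 1022 FPKM in the 3 ovary libraries, against 0.11, 0.346 and 1.61 FPKM in the testis. The testis libraries of ctss spread widely, with replicate 3 the highest, and the log2 fold change of 10.90 (edgeR adjusted p = 2.18e-09) became 12.44 without testis replicate 3. Of 6 progestin receptor and hydration genes, 2 were ovary-higher (33.3%) and none was testis-higher, and the list median log2 fold change was -0.08. The ovary-higher ones were pgrmc2 (log2 fold change 1.23, and 0.91 and not called by library totals) and the membrane progestin receptor gene paqr5. The latter had 8.61, 9.36 and 7.51 FPKM in the ovary and 0.0611, 0.192 and 2.23 FPKM in the testis. Testis replicate 3 was the highest of its group, and without it the log2 fold change of 3.72 became 6.37. The list meant for egg envelope proteins matched only zpld1, chgb, chga and zpr1, none of which encodes one, so no result is given for it.

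Genes of the follicle cells and of oestrogen synthesis were called on both sides, with 7 ovary-higher and 7 testis-higher among 24 tested (median log2 fold change -0.19). These shares, 29.2% each, were close to the 23.6% and 29.6% of all genes, and nothing particular to the list is read from them. The genes cyp17, hsd17b3, 3bhsd, star and lhcgr are also members of the list of Leydig cell and androgen genes below. The forkhead gene foxl2 (chromosome 13, 31814602 to 31815767), which keeps follicle cells female, was at 29, 15.2 and 21.3 FPKM in the ovary, while the 3 testis libraries together held 1 count, a ratio of 1358 with a 95% counting interval of 243 to 53713 (exact Clopper-Pearson, counting error only). The aromatase gene, listed as LOC101174651 with the RefSeq synonym cyp19a1 (chromosome 3, 13485146 to 13487832), turns androgen into oestrogen. It was at 24.2, 20.2 and 14.3 FPKM in the ovary and at 0.433, 0.251 and 0.325 FPKM in the testis (log2 fold change 6.13, standard error 0.30, edgeR adjusted p = 1.45e-08). The hydroxysteroid dehydrogenase gene hsd17b1, which makes oestradiol, followed it with 23.9 ± 6.45 against 0.125 ± 0.117 FPKM (SD, n = 3 each, log2 fold change 7.76, and 8.95 without testis replicate 1). None of these genes overlapped between the tissues, although their ovary libraries spread more widely than those of figla or zar1. The activin subunit gene inhbb (log2 fold change 4.36) and the signalling gene wnt4 (3.59) were also ovary-higher. On the testis side of the same list were cyp17, an enzyme that makes androgen precursors, with 6.94, 5.66 and 7.84 FPKM in the ovary and 203, 169 and 208 FPKM in the testis (log2 fold change -4.50, edgeR adjusted p = 2.01e-09), and fshr, the receptor of follicle-stimulating hormone, which Sertoli cells also carry, with 7.13 ± 3.02 against 28.4 ± 1.01 FPKM (SD, n = 3 each). The testis-higher members also included the follistatin gene fst (log2 fold change -4.20, edgeR adjusted p = 3.37e-05), wnt4b (-5.55) and hsd17b3 (-2.28).

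Genes of ovulation, which opens the follicle wall by proteolysis, gave 7 ovary-higher (50%) and 2 testis-higher (14.3%) among 14 tested (median log2 fold change 0.96). Over all genes these shares were 23.6% and 29.6%. The prostaglandin synthase gene ptgs2 was at 3.18, 6.13 and 3.41 FPKM in the ovary, with replicate 2 the highest, and at 0.308, 0.357 and 0.433 FPKM in the testis (log2 fold change 3.84, edgeR adjusted p = 2.51e-06). The membrane metalloprotease gene mmp14 (log2 fold change 3.65) and the prostaglandin receptor gene ptger4 (2.07, and 3.25 without testis replicate 3) were also ovary-higher. Another prostaglandin synthase gene, ptges, was testis-higher, at 1.59 ± 0.632 FPKM in WT_Fe_Ov and 12.1 ± 6.25 FPKM in WT_Ma_Te (SD, n = 3 each, edgeR adjusted p = 0.000224). In the matrix list, there were 17 ovary-higher (36.2%) and 9 testis-higher (19.15%) among 47 tested (median log2 fold change 0.50). There 1 testis-higher member, col4a3bp, is a lipid transfer protein. The laminin gene lamb3 (log2 fold change 5.39, and 7.96 without testis replicate 3) and the collagen gene col4a5 (3.73) were ovary-higher. The laminin genes lama2 (-3.47) and lamb1 (-2.50) were testis-higher.

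**Figure D2:**
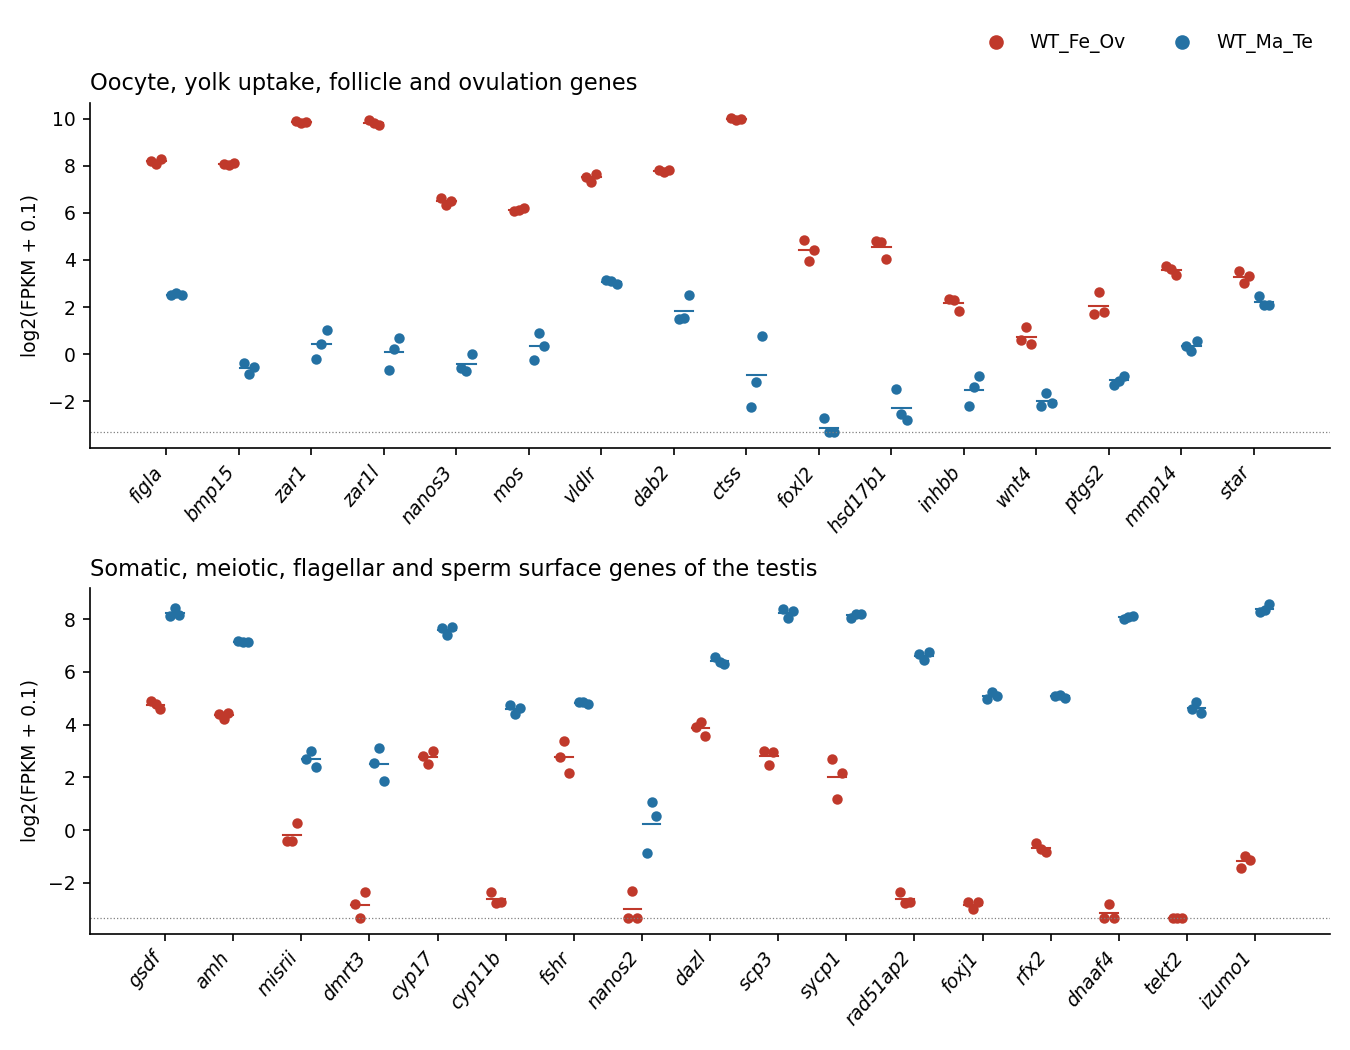
FPKM of 33 named genes in each of the 6 libraries, as log2(FPKM + 0.1), with a point for each library, a bar for the mean of the plotted values and a dotted line at 0 FPKM. In each gene shown, the 3 WT_Fe_Ov points lie above the 3 WT_Ma_Te points (upper panel) or below them (lower panel).

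Of the lists for the somatic cells of the testis, that of Sertoli and male somatic genes had 4 ovary-higher and 11 testis-higher among 20 tested (median log2 fold change -1.19). The growth factor gene gsdf (chromosome 12, 10455047 to 10458695), which in medaka acts downstream of DMY, was at 280.2, 339 and 285 FPKM in the testis and at 29.8, 27.4 and 24.1 FPKM in the ovary. The anti-Müllerian hormone gene amh (chromosome 4, 7984441 to 7987000) was at 144, 139.6 and 141 FPKM in the testis and at 21, 18.6 and 21.8 FPKM in the ovary. Both genes were thus present in the ovary at well above 10 FPKM, and their log2 fold changes were -3.15 (edgeR adjusted p = 6.68e-09) and -2.46 (edgeR adjusted p = 1.71e-08). The receptor gene misrii, which is not a member of this list, followed amh with a log2 fold change of -2.69. The DM domain gene dmrt3 was at 5.77, 8.58 and 3.58 FPKM in the testis and had 3 counts over the ovary libraries, a ratio of 103 with a 95% counting interval of 35 to 501. Lower in the ovary too were sox9, a Sertoli cell transcription factor (log2 fold change -4.37), and dhh, the hedgehog ligand of Sertoli cells (-4.17). Against the name of the list, inhbb, nr0b2, sox8 and fgf16 were ovary-higher, of which fgf16, a fibroblast growth factor gene, was at 1.84, 2.03 and 0.932 FPKM in the ovary and had 1 count over the testis libraries. Of the list members, inhbb and gata4 also belong to the list of follicle cell and oestrogen genes, so inhbb counts as ovary-higher in both. The libraries of sox8 overlapped, with 1.08, 0.0593 and 3.58 FPKM in the ovary, and its adjusted p (edgeR) was 0.209 without ovary replicate 3 and 0.0586 without testis replicate 1. Without either of these libraries 2 of the 4 remained ovary-higher.

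Of 12 Leydig cell and androgen genes, 1 was ovary-higher and 3 testis-higher (median log2 fold change -0.10), below the shares of all genes (23.6% and 29.6%) in both directions, and the other 8 were not called. The steroid 11-beta-hydroxylase gene cyp11b (chromosome 16, 19139079 to 19143840), which makes the fish androgen 11-ketotestosterone, is not a member of this list. It was at 26.9, 20.9 and 24.8 FPKM in the testis and at 0.096, 0.0476 and 0.0504 FPKM in the ovary (log2 fold change -8.12, edgeR adjusted p = 2.34e-09). Ovary libraries held 4 counts of cyp11b together, and the ratio of 301 had a 95% counting interval of 118 to 1108. Like cyp17, the list member hsd17b3 was testis-higher, at 2.38 ± 1.12 FPKM in WT_Fe_Ov and 14.5 ± 6.3 FPKM in WT_Ma_Te (SD, n = 3 each). Earlier in the pathway, the cholesterol transport gene star was ovary-higher, with 11.6, 8.03 and 9.79 FPKM against 5.45, 4.1 and 4.15 FPKM (log2 fold change 1.42, edgeR adjusted p = 0.000982). The luteinizing hormone receptor gene lhcgr had 1.67 ± 0.456 FPKM in WT_Fe_Ov and 1.75 ± 0.239 FPKM in WT_Ma_Te (SD, n = 3 each) and was not called.

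Spermatogonial and germ line stem cell genes gave 5 ovary-higher and 5 testis-higher among 16 tested (median log2 fold change -0.18). These shares, 31.25% each, were not far from the 23.6% and 29.6% of all genes, and nothing particular to the list is read from them. The members dazl, dnd1 and nanos3 also belong to the list of RNA-binding and translation factors. The piRNA list shares ddx4, nanos2, piwil1 and piwil2 with this list, and eno4 is also in the list of sperm channels and energy metabolism. The RNA-binding gene nanos2, which marks germ line stem cells, was low even in the testis, at 0.449, 1.97 and 1.37 FPKM, and the 3 ovary libraries held 1 count together, a ratio of 27.8 with a 95% counting interval of 4.73 to 1125. The Piwi gene piwil1, which silences transposons in germ cells, was abundant in both tissues, with 57.6 ± 5.96 FPKM in WT_Fe_Ov and 259 ± 11.9 FPKM in WT_Ma_Te (SD, n = 3 each, log2 fold change -1.84). The germ cell genes nanos3 (log2 fold change 7.40), sall4 (1.85), lin28b (2.03) and dnd1 (1.32, and 0.99 and not called by library totals) were ovary-higher. In the piRNA list, there were 3 ovary-higher and 8 testis-higher among 23 tested (median log2 fold change -0.61). Its ovary-higher share was below the 23.6% of all genes, and its testis-higher share was not far from the 29.6%. Nothing particular to the piRNA list is read from the testis-higher share. Among its members, the nuclease gene pld6 (-4.19) was testis-higher. The helicase gene mov10l1 (1.81), the arginine methyltransferase gene prmt5 (2.38) and the gene of its partner, wdr77 (2.00), were ovary-higher.

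Meiotic genes were mainly testis-higher, with 3 ovary-higher and 32 testis-higher among 52 tested (median log2 fold change -2.59). The axis gene scp3 of the synaptonemal complex, which pairs homologous chromosomes, is not a member of this list. It was at 334, 262 and 320.4 FPKM in the testis and at 7.88, 5.47 and 7.71 FPKM in the ovary (log2 fold change -5.12, edgeR adjusted p = 1.61e-09). The list member sycp1, a gene of the same complex, was at 284 ± 17.8 FPKM in the testis and 4.34 ± 2.15 FPKM in the ovary (SD, n = 3 each). The widest difference of the list was that of rad51ap2, a recombinase partner, with 102, 86.6 and 107 FPKM in the testis and 8 counts over the 3 ovary libraries (log2 fold change -10.21, edgeR adjusted p = 8.36e-11). The telomere attachment gene majin (log2 fold change -7.96), the cohesin gene smc1b (-7.49), the crossover helicase gene hfm1 (-7.58) and the crossover gene msh5 (-7.00) were under 1 FPKM in every ovary library. The spans of rad51ap2, majin and msh5, like that of pld6, overlap those of other annotated genes. By contrast, the recombinase gene dmc1 kept 33.4, 25.6 and 33.1 FPKM in the ovary, against 160.1, 151 and 142 FPKM in the testis (-1.97). The ovary-higher members included the cyclin gene ccna2 (log2 fold change 1.68) and the nuclease gene eme1 (1.37), both of which also act outside meiosis.

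Genes of the flagellum formed the largest testis-higher group by number. Of 90 axoneme and flagellum genes, 2 were ovary-higher and 84 testis-higher, with a median of -5.89. The dynein assembly gene dnaaf4 was at 258, 273 and 274 FPKM in the testis, and the 3 ovary libraries held 1 count together, a ratio of 13958 with a 95% counting interval of 2505 to 551330. The microtubule lining gene tekt2 was at 24.2, 29 and 21.5 FPKM in the testis and had no count in the ovary, and against a floor of 3 counts per library it was at least 265-fold higher in the testis. The axoneme genes cfap161 (chromosome 6, 18991119 to 19002925) and drc1 were among the abundant ones, with 0.17 ± 0.00542 against 522 ± 44.3 FPKM for cfap161 and 0.131 ± 0.0471 against 371 ± 25.9 FPKM for drc1 (SD, n = 3 each, ovary first). In all 3 ovary libraries the level of these 4 genes stayed under 1 FPKM. The span of dnaaf4 overlaps that of LOC100144364. The members not called were iqcb1 (log2 fold change -0.87, and -1.19 and called by library totals), spag1 (-0.36), tekt3 (-0.05) and tekt4 (0.81). The ovary-higher members were lrrc61 (1.37) and iqch (1.82), and iqch, at under 1 FPKM in every library, had an adjusted p of 0.0611 with DESeq2. The list was matched by name patterns, and members such as lrrc61, lrrc66 and efcab14 need not belong to the axoneme.

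Genes that build and control the flagellum followed the same side. In the list of intraflagellar transport and ciliary gate genes, there were 7 ovary-higher and 49 testis-higher among 65 tested (median log2 fold change -2.67). The list was matched by name patterns and also holds genes such as tmem170 and arl6ip members that have no known place in the cilium. The transcription factor genes that switch on cilium genes were testis-higher, with foxj1 at 31.5, 37.6 and 34 FPKM against 0.050, 0.0247 and 0.0525 FPKM in the ovary (log2 fold change -9.26, edgeR adjusted p = 1.47e-10), rfx2 at 33.6 ± 1.32 against 0.532 ± 0.0797 FPKM (SD, n = 3 each, testis first) and rfx3 with a log2 fold change of -3.79. Their testis libraries did not overlap with those of the ovary, though the spans of rfx2 and rfx3 overlap other genes. The kinesins, the microtubule motors, had 5 ovary-higher and 16 testis-higher among 27 tested (median log2 fold change -1.27), where 1 ovary-higher member, kif1bp, is a kinesin-binding protein and no motor, with kif27 (-7.63, and -8.38 without ovary replicate 2) and kif17 (-6.19) on the testis side and the spindle motor gene kif11 (1.53) on the ovary side. The centriole and centrosome genes had 7 ovary-higher and 29 testis-higher among 64 tested (median log2 fold change -0.78). There cep126 was testis-higher (-7.15), and haus5 (2.90), haus7 (2.17) and haus6 (1.41), subunits of the augmin complex that adds microtubules within the spindle, were ovary-higher. This list too was matched by name patterns, and members such as ccdc141 and ccdc142 need not belong to the centrosome.

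The 5 called genes of gamete fusion, which act on the sperm surface, were under 2 FPKM in every ovary library. Of 22 genes of sperm head shaping and spermiogenesis, 2 were ovary-higher and 16 testis-higher (median log2 fold change -2.36), with lrguk (-6.97) on the testis side and hook1 (3.24), a microtubule linker, on the ovary side. Of the members of the gamete fusion list that were tested, 5 of 6 were testis-higher and none was ovary-higher, with a median of -9.17. The list also held hce and lce, which are hatching enzyme genes, and the tested member not called was among these. The gene izumo1 (chromosome 9, 6721402 to 6725244), whose protein on the sperm binds the egg membrane, was at 310.0, 321 and 381 FPKM in the testis and at 0.272, 0.404 and 0.357 FPKM in the ovary (log2 fold change -9.58, standard error 0.18, edgeR adjusted p = 7.65e-11). Its partners on the sperm membrane, spaca6 and tmem81, were at 99.8 ± 8.95 and 122 ± 11.7 FPKM in the testis (SD, n = 3 each) and under 0.3 FPKM in every ovary library. The sperm membrane genes dcst1 and dcst2 had log2 fold changes of -8.82 and -6.29, and their spans overlap each other, so reads from any exons they share cannot be told apart by strand.

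**Figure D3:**
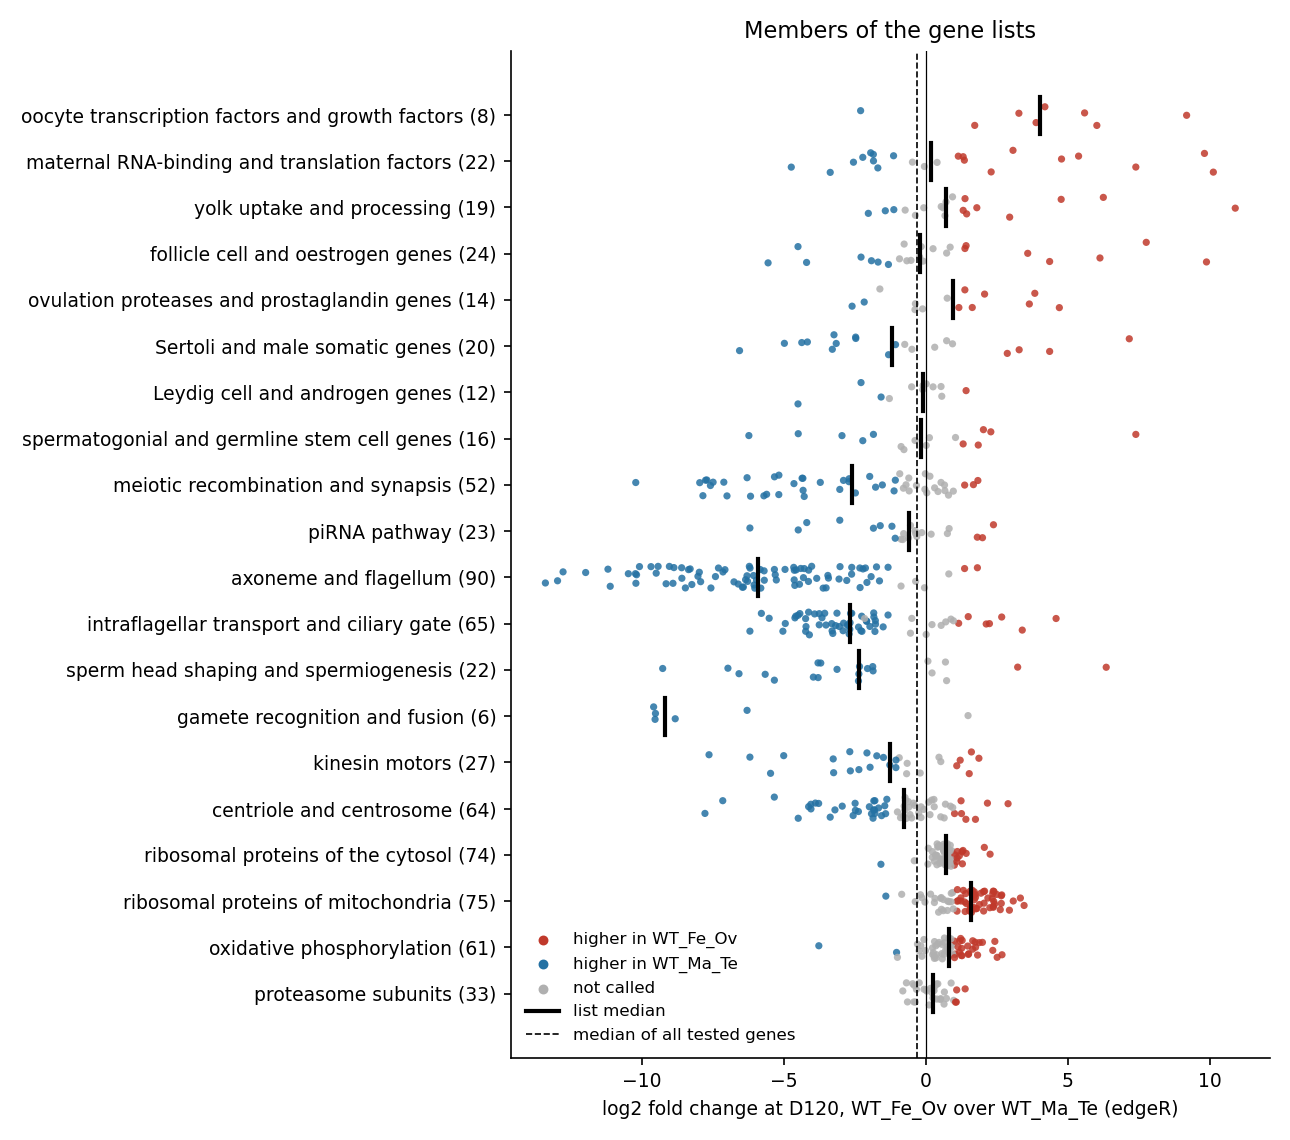
log2 fold change at D120 (WT_Fe_Ov over WT_Ma_Te) of each tested member of 20 gene lists, with the number of members in parentheses, a thick bar for the list median, a solid line at 0 and a dashed line at the median of all tested genes (-0.31). The axoneme and flagellum list has its median at -5.89 and that of the oocyte transcription and growth factors lies at 4.04.

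Energy genes were split by enzyme. The list of sperm channels and energy metabolism had 4 ovary-higher (33.3%) and 6 testis-higher (50%) among 12 tested (median log2 fold change -0.57). Over all genes these shares were 23.6% and 29.6%. The glycolysis gene gapdh was at 557, 553 and 546 FPKM in the ovary and at 40.03, 67.3 and 47.7 FPKM in the testis (log2 fold change 3.74, edgeR adjusted p = 2.02e-08), and pgk1 was also ovary-higher (1.74), though its span overlaps another gene. In the testis, eno4, the enolase of the sperm tail in mice, was at 44.7 ± 7.06 FPKM against 0.473 ± 0.0722 FPKM in the ovary (SD, n = 3 each), and the adenylate kinase gene ak1, which regenerates ATP, was at 326, 322 and 397 FPKM against 7.34, 7.08 and 8.2 FPKM. The creatine kinase gene ckb was close to the threshold, with a log2 fold change of -1.01 that came to -0.97 with DESeq2 and was then not called, as also without ovary replicate 1, ovary replicate 2 or testis replicate 2 (-0.93 in each case).

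Genes of the protein and energy machinery of the mitochondrion leaned to the ovary. Of 75 mitochondrial ribosomal proteins, 53 were ovary-higher and 1 testis-higher, with a median of 1.58, and of 61 oxidative phosphorylation genes, 25 were ovary-higher and 2 testis-higher, with a median of 0.82. The ribosomal protein gene mrpl49 was at 144, 109 and 110.4 FPKM in the ovary and at 13.8, 12.7 and 14.9 FPKM in the testis (log2 fold change 3.46, edgeR adjusted p = 6.4e-09), and the one testis-higher gene of its list was mrps34 (-1.41). Among the oxidative phosphorylation genes, the ATP synthase gene atp5pd (1.88) and the complex I assembly gene ndufaf6 (2.68) were ovary-higher, whereas the complex I core gene ndufs1 was testis-higher, at 27.6 ± 2.84 FPKM against 1.62 ± 0.167 FPKM (SD, n = 3 each). The list of cytosolic ribosomal proteins had 12 ovary-higher and 1 testis-higher among 74 tested (median log2 fold change 0.72), and that of proteasome subunits had 4 ovary-higher and no testis-higher among 33 tested (median log2 fold change 0.25). Both were matched by name patterns, which also brought in rps6ka6, rps6kc1, rps6kl1 and rps19bp1 (kinases and a binding protein) and psmc3ip, a meiotic recombination gene. Without them 10 of 70 ribosomal proteins were ovary-higher and none testis-higher, and 4 of 32 proteasome genes were ovary-higher, both below the 23.6% of all genes. These counts depend on the scaling. By library totals, the ovary-higher members of the lists as matched numbered 46 for the mitochondrial ribosome, 14 for oxidative phosphorylation, 3 for the cytosolic ribosome and 1 for the proteasome.

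Some further lists are given beside the shares of all genes, 23.6% ovary-higher and 29.6% testis-higher. The spliceosome list had 6 ovary-higher (14.6%) and 7 testis-higher (17.1%) among 41 tested (median log2 fold change 0.29), both below those shares. The claudin, connexin and cadherin list had 7 ovary-higher (25%) and 5 testis-higher (17.9%) among 28 tested (median log2 fold change 0.13). Its ovary-higher share was close to that of all genes. The maternal chromatin list had 3 ovary-higher (42.9%) and no testis-higher among 7 tested (median log2 fold change 0.41). Of these, npm3, a nucleoplasmin family gene, had a log2 fold change of 3.56. The maintenance DNA methyltransferase gene dnmt1 had 1.27 (and 0.94, not called, by library totals).

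Several families had related genes on opposite sides. The cold shock domain gene ybx2, whose protein coats stored mRNA in germ cells, was at 444, 427 and 427 FPKM in the ovary and at 11.5, 12.9 and 14.7 FPKM in the testis (log2 fold change 5.38, edgeR adjusted p = 1.8e-10). Its relative ybx1 was at 206, 195 and 216 FPKM in the ovary and at 1499, 1535 and 1477 FPKM in the testis (log2 fold change -2.55, edgeR adjusted p = 3.01e-08), the highest mean level among the testis-higher genes with no overlap between groups. Thus ybx2 exceeded ybx1 in each ovary library and ybx1 exceeded ybx2 in each testis library. The TATA-binding protein relative tbpl2, the oocyte's form in vertebrates, was at 17.9 ± 2.35 FPKM in the ovary and 0.264 ± 0.0409 FPKM in the testis, while tbpl1, needed for spermiogenesis in mice, was at 3.71 ± 0.29 and 40.5 ± 2.31 FPKM (SD, n = 3 each). Cyclin A genes were divided too, with ccna1 at 4.52, 1.98 and 1.94 FPKM in the ovary and 129.9, 124 and 129 FPKM in the testis (log2 fold change -5.17) and ccna2 on the ovary side. So were the pairs nanos3 and nanos2 and cpeb1 and cpeb4, described above. Of the Wnt4 genes, wnt4 was at 1.42, 2.11 and 1.24 FPKM in the ovary, and wnt4b was at 1.83, 1.64 and 1.81 FPKM in the testis, with 5 counts over the ovary libraries. The spans of ybx2, ybx1, tbpl1, ccna1 and wnt4b overlap those of other genes. The retinoic acid degrading enzyme gene cyp26a1 was at 129, 104 and 146 FPKM in the ovary and at 0.834, 0.576 and 1.22 FPKM in the testis (log2 fold change 7.49, edgeR adjusted p = 7.64e-10). The other such gene, cyp26b1, was under 1 FPKM in every library, and its testis-higher call (log2 fold change -1.37, edgeR adjusted p = 0.0288) was lost with DESeq2 (adjusted p = 0.125) and without any one library other than ovary replicate 2 (edgeR adjusted p from 0.0534 to 0.0748). The families in this paragraph were put together after their values were seen.

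**Figure D4:**
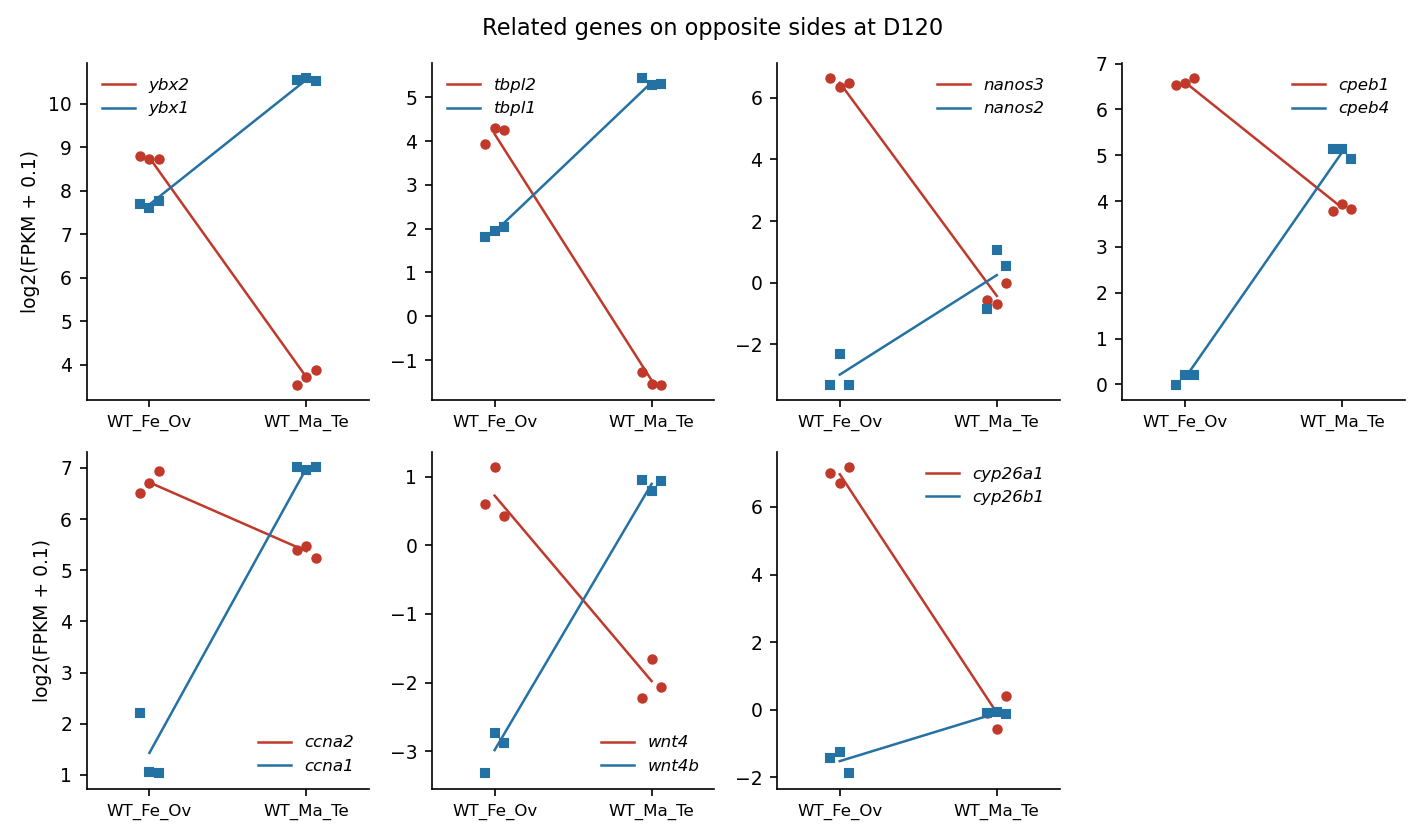
FPKM of 7 pairs of related genes in the 3 WT_Fe_Ov and the 3 WT_Ma_Te libraries of D120, as log2(FPKM + 0.1), with a point for each library and lines joining the group means of the plotted values. In each panel the lines run in opposite directions, as for ybx2 (5.38) and ybx1 (-2.55).

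Across the table, 225 pairs of tested genes had symbols that differ only by a final a or b, as duplicates in fish often do. In 26 pairs 1 gene was ovary-higher and the other testis-higher, in 17 both were ovary-higher and in 22 both were testis-higher, while in 113 only 1 gene was called and in 47 neither. The opposite pairs were thus 11.6% of all, where 23.6% and 29.6% of single genes were called ovary-higher and testis-higher, and nothing particular to such pairs is read from this count. The 5 opposite pairs with the largest smaller change, among those with a mean of at least 100 counts, were rasl11a (-2.89) and rasl11b (4.69), pde8a (2.47) and pde8b (-3.15), dennd4a (2.27) and dennd4b (-2.12), phf21a (2.06) and phf21b (-2.21), and myo5a (-2.79) and myo5b (1.68), given as log2 fold changes. Of these, rasl11b, a small GTPase gene, was at 93.9, 89.2 and 74.8 FPKM in the ovary and at 4.47, 4.33 and 3.61 FPKM in the testis, and the myosin motor gene myo5a at 3.85 ± 0.0653 and 33.3 ± 2.31 FPKM (SD, n = 3 each). A shared ending does not prove that a pair arose by duplication.

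Many of the most abundant and most one-sided genes carried no gene name. Of the genes called, 52.2% on the ovary side and 60.9% on the testis side carried only a LOC number, as did 58.3% of all tested genes. The highest ovary levels were those of LOC100049333 (chromosome 17, 17785271 to 17786841), with 3257, 3139 and 3158 FPKM against 0.244, 3.6 and 7.58 FPKM in the testis, LOC100049343, with a mean of 2916 FPKM, and LOC100169838, with 2907 FPKM. Without testis replicate 3, the log2 fold change of LOC100049333 went from 10.09 to 11.10, that of LOC100049343 from 10.65 to 11.83 and that of LOC100169838 from 9.93 to 10.85. The largest ovary-side fold changes included LOC101171769 (chromosome 15, 7560083 to 7561370), with 54.1, 71.1 and 60.8 FPKM in the ovary and no count in the testis, at least 385-fold higher against a floor of 3 counts per library. On the testis side, LOC101174737 (chromosome 4, 15644995 to 15646681) was at 638, 693 and 733 FPKM and had no count in the ovary, at least 1484-fold higher. Neither of the last 2 genes had a single count on the other side. The called genes with no count at all in the other tissue numbered 565 of 7410 on the testis side and 144 of 5902 on the ovary side. The ovary libraries held fewer counted pairs, 11373264 to 12064750 against 13027862 to 16345431 in the testis libraries. Per the study's sequencing summary, the numbers of read pairs sequenced overlapped between these groups. With fewer counted pairs a gene is more easily missed in the ovary, and the part of this in the numbers of genes without a count was not tested. Among genes with a symbol, picked after their values were seen, the ovary's highest included nqo1, a quinone reductase gene, with 1565 ± 94.1 FPKM, alv, for alveolin, a protease of the cortical granules that acts on the egg envelope, with 1474 ± 156 FPKM, and gtf3a, for the transcription factor of 5S ribosomal RNA genes, with 712 ± 31.2 FPKM (SD, n = 3 each). The 3 testis libraries of gtf3a held 1.05, 1.74 and 1.76 FPKM. The insulin-like growth factor gene igf1 was at 19.5, 38 and 18.8 FPKM in the ovary and at 0.0419, 0.0788 and 0.0766 FPKM in the testis (log2 fold change 8.86).

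By kind of gene, 452 of 2799 tested long non-coding RNAs were ovary-higher and 934 were testis-higher, against 5417 and 6408 of 21658 protein-coding genes. On chromosome 1, the sex chromosome of medaka, 23.8% of the 1351 tested genes were ovary-higher and 29.8% testis-higher, close to 23.6% and 29.6% over all genes. Ovary-higher shares of the 24 chromosomes ran from 16.7% on chromosome 2 to 28.5% on chromosome 15, and testis-higher shares from 24.9% on chromosome 10 to 35.1% on chromosome 2.

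Other cell types of the organ were measured by short lists. Over all genes 23.6% were ovary-higher and 29.6% testis-higher. Immune genes were ovary-higher in 37.5% and testis-higher in 6.25%. Vessel and smooth muscle genes were ovary-higher in 20%, close to the share of all genes. Of 16 immune genes, 6 were ovary-higher and 1 testis-higher (median log2 fold change 1.09), the ovary-higher ones including the leukocyte gene ptprc, at 3.17, 12 and 4.48 FPKM in the ovary and 1.08, 1.7 and 2.97 FPKM in the testis (log2 fold change 2.09, and 1.40 without ovary replicate 2), and the phagocyte oxidase gene ncf4 (2.72), and the testis-higher one being the chemokine receptor gene ccr7 (-5.12, and -5.75 without ovary replicate 2). The summed level of the immune list was 60.7 to 98.6 FPKM in the ovary and 58.2 to 60.1 FPKM in the testis, and rag2 had no count in the ovary. Vessel and smooth muscle genes had 2 ovary-higher and no testis-higher members of 10 (median log2 fold change 0.47), with sums of 177 to 244 and 137 to 184 FPKM, most of it acta2, which was not called. Blood genes, without any globin among the 4 matched, summed to 8.81 to 15.2 FPKM in the ovary and 7.99 to 10.1 FPKM in the testis, skeletal muscle genes to 7.06 to 7.6 and 3.58 to 4.39 FPKM with mb and myog at 0 in the ovary, and liver genes to 7.38 to 38.9 and 31 to 51.7 FPKM. The pancreatic enzyme gene cpb1 was at 20.4, 5.14 and 2.87 FPKM in the ovary and at 21.8, 22.1 and 30.9 FPKM in the testis, with ovary replicate 1 the highest of its group, and was not called (log2 fold change -1.06), but became testis-higher without that library (-2.31), by library totals (-1.39) and with the replicate block (-1.48). The part of these cell types in the results was not tested.

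The XY ovaries of MT_Fe_Ov at D120, which differ from the wild-type ovary in sex chromosomes and in the mutated DMY, are set beside both groups for the marker genes only. Their means of 3 libraries were 275 FPKM for figla, 269 for bmp15, 943 for zar1, 20.9 for foxl2 and 23.3 for aromatase, where WT_Fe_Ov had 294, 271, 933, 21.8 and 19.5. For gsdf, amh, scp3 and izumo1 the means were 21.7, 18.1, 7.33 and 0.11 FPKM in MT_Fe_Ov and 27.1, 20.5, 7.02 and 0.345 FPKM in WT_Fe_Ov. No comparison of MT_Fe_Ov with the testis was made here, since it would use the same testis libraries.

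The same contrast of ovary and testis at 30 days post hatch (D30), when the gonads are young, was set against that of D120 in 1 edgeR fit of 12 libraries. Of 25497 genes, 5303 had a contrast that was more ovary-sided at D120 (20.8%) and 4779 one that was more testis-sided (18.7%), together 39.5%, with the same thresholds. By library totals the split became 7915 and 2642. Per the study's sequencing summary the D30 testis libraries had shorter reads than the others, and in D30 the tissue and the read length cannot be told apart. Ovulation genes were more ovary-sided at D120 in 9 of 14, and follicle genes in 15 of 24. So were 9 of 20 Sertoli and male somatic genes, 5 of 12 Leydig cell genes, 7 of 16 spermatogonial genes, 10 of 16 immune genes and 49 of 74 in the list of cytosolic ribosomal proteins. The activin subunit gene inhbb had 0.341 FPKM in the D30 ovary and 4.43 in the D120 ovary. Its log2 fold change was -2.91 at D30 and 4.36 at D120 (difference 7.29, edgeR adjusted p = 1.59e-10). For nanos3 the ovary levels were 44.2 and 90.1 FPKM (difference of the contrasts 4.82, edgeR adjusted p = 9.1e-11). Each of these differences also holds the change in the testis between the stages, and is not the rise in the ovary alone. Axoneme and flagellum genes were more testis-sided at D120 in 69 of 90, meiotic genes in 32 of 52 and centriole and centrosome genes in 44 of 64. Genes of oocyte meiotic arrest and maturation were more testis-sided too, in 17 of 24. By library totals the more ovary-sided list counts were 11, 17, 11, 7, 11, 10 and 67 and the more testis-sided ones 56, 22, 37 and 9, each in the same order.

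For some genes the fold change had opposite signs at the stages. With at least 100 counts on average at both stages, 438 genes called ovary-higher at D120 and 814 called testis-higher had a fold change of the other sign at D30 and a called difference of the contrasts. Of these, 200 and 170 were called on opposite sides at both stages. With no count minimum, 596 genes went from testis-higher at D30 to ovary-higher at D120 and 225 went the other way. The balance of the directions thus depends on these limits. It can also depend on the scaling, since by library totals the median difference of the contrasts over all genes was 0.73 instead of 0.12. No count of sign changes by library totals is given here, so neither direction is read as the more common. The collagen gene col10a1 had a log2 fold change of -6.04 at D30 and 2.39 at D120, where its ovary libraries were at 2.3, 2.99 and 12.6 FPKM and its testis libraries at 2.32, 0.519 and 1.4 FPKM. Its D120 groups overlapped, and without ovary replicate 3 its D120 log2 fold change was 1.21 (edgeR adjusted p = 0.0649). Its span overlaps that of nt5dc1. In the other direction, spata7, known from cilia of the retina, had 3.82 at D30 and -2.37 at D120, with 0.937, 1.27 and 2.92 FPKM in the D120 ovary and 18.4, 6.97 and 7.51 FPKM in the D120 testis. Without testis replicate 1, the highest library, its D120 value was -1.73.

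**Figure D5:**
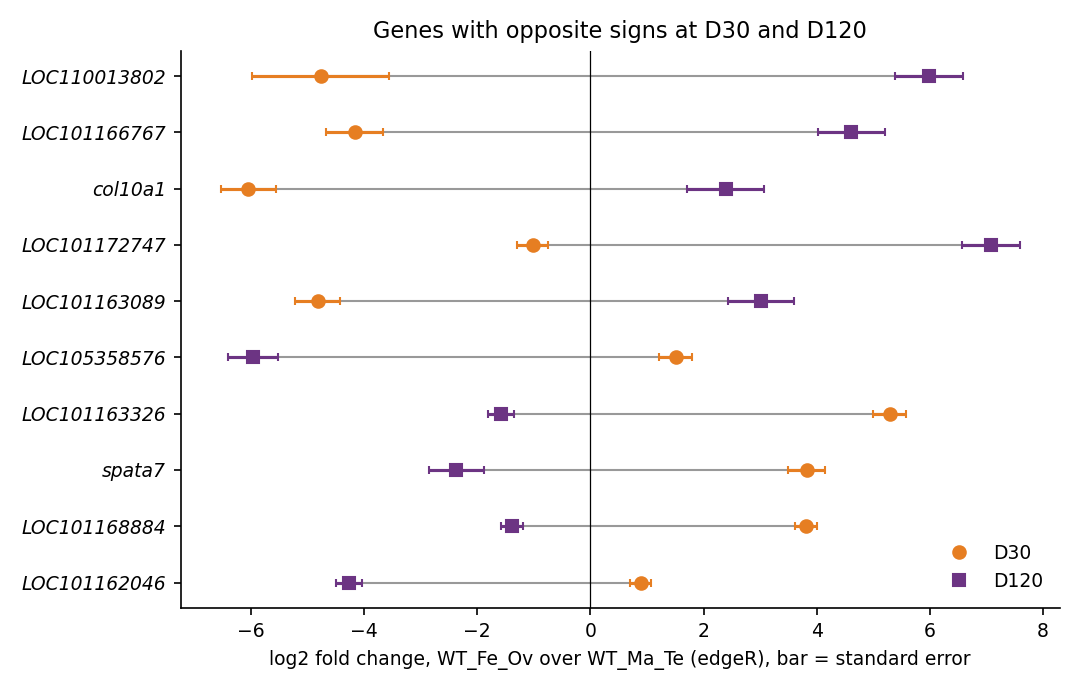
log2 fold change (WT_Fe_Ov over WT_Ma_Te) at D30 (circles) and D120 (squares) with its standard error, for the 10 genes that have opposite signs at the 2 stages and the largest difference of the contrasts, 5 in each direction. The uppermost, LOC110013802, went from -4.77 to 5.98, and the lowest, LOC101162046, from 0.89 to -4.27. At D30 the mean level of LOC101162046 was 1.68 FPKM in the ovary and 1.79 FPKM in the testis, so its D30 sign depends on the scaling. For each gene shown, the D30 log2 fold change lay above the log2 ratio of its mean FPKM levels, which are scaled by library totals.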

How the data were processed

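Poly(A) RNA of 27 samples was sequenced as read pairs, of which the 6 D120 wild-type libraries, the D30 wild-type libraries and, for side-by-side levels, the D120 MT_Fe_Ov libraries were used here. The authors trimmed reads with fastp, aligned them to the medaka genome ASM223467v1 with STAR and counted pairs per gene with featureCounts, and the deposited counts are not normalized. The authors also deposited FPKM values, computed in DESeq2 from the same counts and the exon length of each gene. Counting used no strand, and multi-mapped reads were left out by its default, so genes with near-identical copies are uncertain. Per the study's mapping summary, multi-mapped pairs were a larger share in every D120 WT_Fe_Ov library than in any D120 WT_Ma_Te library. The part of this difference in the contrast was not tested.

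Of 26099 genes, the 24997 with at least 1 count in the 6 libraries were tested in edgeR 4.0.16 (R 4.3.3; TMM, quasi-likelihood test, Benjamini-Hochberg), with limma 3.58.1 below it and DESeq2 1.42.0 as an alternative. The D30 contrast was set against that of D120 as an interaction. The standard error of a log2 fold change is its size over the square root of F. Total counts of the 6 libraries ran from 11373264 to 16345431. Counting intervals are exact at 95% and, like the floor of 3 counts per library, cover counting error only. Other values were computed with scipy 1.17.1, pandas 2.3.3 and numpy 2.4.6 under Python 3.11.15, and plots drawn with matplotlib 3.10.9. The tests were checked on simulated data with far fewer changed genes than were called here, equal in both directions. This check does not cover the scaling in a contrast where most genes differ. Symbols were matched to RefSeq (26027 genes), and 9 symbols turned into dates were not named.

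The members and gene lists were chosen with earlier results of these data known. Named genes were list members, in each direction the 10 called genes with the largest fold change and the 10 with the highest FPKM (at least 100 counts, no overlap between groups), the 5 opposite a/b pairs, and the 5 genes in each direction with the largest D120 against D30 difference and opposite signs. Outside this rule, cyp11b, scp3, misrii, alv, nqo1, gtf3a and igf1, the augmin genes as a group and the related pairs were chosen after their values were seen. Alternatives were library totals, DESeq2 and its size factors, other filters and thresholds, all 27 libraries in 1 fit, a replicate block and leaving out each library. Some genes are not reported here.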

Additional observations from a re-analysis of the deposited data

Results flagged for a closer look

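For 10 genes the ovary to testis contrast differed between D30 and D120 by the test of the difference itself (edgeR), with opposite signs at the stages. The D120 contrast was more ovary-sided by 10.79 on the log2 scale for LOC110013802, by 8.82 for LOC101166767, by 8.43 for col10a1, by 8.14 for LOC101172747 and by 7.85 for LOC101163089. It was more testis-sided for LOC105358576, with a difference of -7.45, for LOC101163326 with -6.84, for spata7 with -6.17, for LOC101168884 with -5.17 and for LOC101162046 with -5.13. The D30 sign of LOC101162046 depends on the scaling, since its mean D30 levels were 1.68 FPKM in the ovary and 1.79 FPKM in the testis. Without ovary replicate 3 the D120 log2 fold change of LOC101166767 was 3.75 (with all libraries 4.61) and that of LOC110013802 was 5.35 (with all 5.98). Without testis replicate 3 that of LOC101163089 was 3.78 (with all 3.01), and without ovary replicate 2 that of LOC105358576 was -6.81 (with all libraries -5.96). The D30 testis libraries had shorter reads than the other groups, and the part of read length in these differences was not tested.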

How the results depend on the processing

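With the log2 fold change limit raised to 2, 8317 genes were called at D120, 3307 of them ovary-higher, and 5410 differed between D120 and D30, 3304 more ovary-sided and 2106 more testis-sided. By library totals, 2642 were more testis-sided at D120. The D120 call count ran from 12605 to 13026 when 1 library was left out. The mean number of genes at 1 FPKM or more was higher by 1645 in the testis, by 1005.3 at 10 FPKM and by 2204 at 10 counts, and by 1444 to 1891 with 1 library left out. With a replicate block, 12743 genes were called at D120 and 9895 between the stages. The replicate numbers were not taken to pair the samples, since same-numbered libraries did not deviate together (correlations 0.00345, -0.0302 and -0.089) and no library correlated best with its own number. Of 3047 values of 218 named genes under the alternatives, 2976 stayed on their side of the threshold, 67 lost the call, 4 gained it and none reversed. Leaving out 1 library moved the fold change of 53 of these genes by more than 1.5 times. The call of iqch was lost with DESeq2 and with all 27 libraries in 1 fit. Levels below about 0.1 FPKM rest on a few counts, and the part of the unequal level of ovary genes in the testis libraries was not tested.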
